A study of Mus musculus with 6 samples.

Results

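The LIM homeobox genes Lhx1, Lhx2, Lhx3, Lhx4, Lhx5, Lhx6, Lhx8, Lhx9, Isl1 and Isl2, 10 of 21924 protein-coding genes of the mouse annotation, were examined in mESCs, C-iPSCs and 4F-iPSCs. They were chosen by their measured methylation levels, because a start of Lhx9 rose stepwise over the cell types in that order, so Lhx9 is described here by the size of its differences, with no test, and the other 9 genes are tested. The CpGs used lie between 5 kb upstream of the gene start and the gene end on mm10 (GRCm38) and had at least 10 reads in each cell type after the replicates were summed. Of 1501 CpGs of these genes with a read in any library, 1234 met this limit, 66 of them in Lhx9 and 1168 in the other 9 genes, and 1106981 CpGs met it in the whole data set. At the limit, 12 CpGs had exactly 10 reads in their shallowest cell type and a highest level of 10.0% in mESCs and 29.4% in 4F-iPSCs. Just outside it, 3 CpGs had 9 reads and a highest level of 18.8% in mESCs and 20.0% in 4F-iPSCs.

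LIM homeodomain proteins carry LIM domains, which hold cofactors such as Ldb1, and a homeodomain, which binds DNA. They specify kinds of neurons and also act in the pituitary, eye, limb, heart and gonad, and they are mostly silent in pluripotent cells. Developmental genes of this class usually start in CpG islands, stretches rich in CpGs that stay unmethylated in most cells, whereas the CpG-poor rest of the genome is usually methylated.

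DNA methylation was measured by RRBS, in which an enzyme cut and a size selection enrich CpG-rich fragments and bisulfite converts unmethylated cytosines, so that the reads that keep a C at a CpG are counted as methylated. The mESCs were male E14 cells at passages 20 to 30. The C-iPSCs were male cells at passages 5 to 10, induced by a small-molecule cocktail from OG2-MEFs, fibroblasts with an Oct4-driven GFP reporter. The 4F-iPSCs were male cells at passages 5 to 10, induced from OG2-MEFs by retroviral Oct4, Sox2, Klf4 and c-Myc. The OG2-MEFs were made from 129S4/SvJaeJ, CBA/CaJ and C57BL/6J mice, so that cell type, genetic background and passage cannot be told apart in comparisons with mESCs. According to the labels, all 3 cell types grew with LIF and 2i, a pair of kinase inhibitors that hold cells in a naive state, on feeder layers of MEFs that were removed before collection, whereas the study's methods describe growth on gelatin. Each cell type had 2 replicate libraries, and nothing in the labels says whether they came from separate lines. The p-values of the tests over libraries below thus rest on the spread between such samples, which may be technical. In the tests of gene regions it was the spread of regions of like depth, and not that of the region tested.

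The 6 libraries had a median of 31 to 54 reads per CpG, the lowest in mESC replicate 2. The mean level of all compared CpGs was 20.8% and 22.8% in the mESC libraries, 26.3% and 30.7% in the C-iPSC libraries, and 33.1% and 34.4% in the 4F-iPSC libraries, and every count below is read against this general rise. As a check of the labels, the promoters of Pou5f1 and Zfp42, which are open in pluripotent cells, were the 2 of 5 pluripotency promoters with enough CpGs, and their levels were 5.33% to 24.3% and 6.34% to 18.3% over the libraries, highest in 4F-iPSC replicate 2 for both. The Pou5f1 window had 488 and 527 reads in the mESC libraries and 7219 to 8509 in each iPSC library, made from cells with an Oct4-driven reporter. Whether these reads come from the same copies in mESCs and iPSCs was not tested. In it the 4F-iPSC libraries were widely spread (SD 7.95 points, n = 2), and their mean was 12.8 points above that of C-iPSCs (SE 5.63, adjusted p = 2.13e-17) and 11.0 points above that of mESCs (SE 6.06, adjusted p = 0.128) by the quasi-binomial test described below, whose dispersion was taken from regions of like depth rather than from this window alone. Of 5 fibroblast and feeder genes only the Twist1 promoter had enough CpGs, at 1.17% to 2.84%, so the sequenced sites say little on a rest of feeder DNA, whose part in the results was not tested.

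In Lhx9, a gene needed for the gonad to form, the rise lay at an inner transcript start and not at the gene start. The gene occupies chr1:138825186-138848577 on the minus strand (ENSMUSG00000019230), and an inner start of its basic annotation lies at position 138842457, 6120 bp inside the gene. In the window of 1 kb to each side of this inner start, 16 CpGs had levels of 2.77% and 6.70% in the mESC libraries, 38.8% and 39.1% in the C-iPSC libraries, and 77.1% and 75.9% in the 4F-iPSC libraries. The libraries of each cell type lay apart from those of the other cell types. The means were 4.73% ± 2.78 (SD, n = 2), 38.9% ± 0.193 (SD, n = 2) and 76.5% ± 0.840 (SD, n = 2), and the 95% Wilson intervals of the summed reads, which cover counting error only, were 3.47% to 5.05%, 37.2% to 40.7% and 74.9% to 77.8%. The rise from mESCs to 4F-iPSCs was 71.7 points, and none of the 14272 other start windows of the genome rose more. From mESCs to C-iPSCs it was 34.2 points, and 16 other windows rose more. From C-iPSCs to 4F-iPSCs it was 37.5 points, and 12 other windows rose more. These ranks describe the window that led to the choice of the family and test nothing.

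At the Lhx9 gene start the level was low in every cell type. The window of 1 kb to each side of it held 17 CpGs, with 4.27% and 4.42% in the mESC libraries, 4.43% and 5.76% in the C-iPSC libraries, and 4.36% and 8.32% in the 4F-iPSC libraries. The 4F-iPSC libraries lay on both sides of C-iPSC replicate 2, so this window held no stepwise order. The rest of the gene, from 1 kb after the gene start to its end, held 49 CpGs, among them those of the inner start window, and was at 11.9% and 14.5%, then 32.7% and 41.0%, and then 53.9% and 61.9%, or 13.2% ± 1.83, 36.8% ± 5.90 and 57.9% ± 5.65 (SD, n = 2). Of these 49 CpGs, 25 rose by over 33.3 points from mESCs to 4F-iPSCs. Those from 1129 to 1284 bp past the gene start stood between 1.81% and 17.9% in 4F-iPSCs with the replicates summed, and those from 17045 to 17172 bp between 2.89% and 35.2%.

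**Figure D1:**
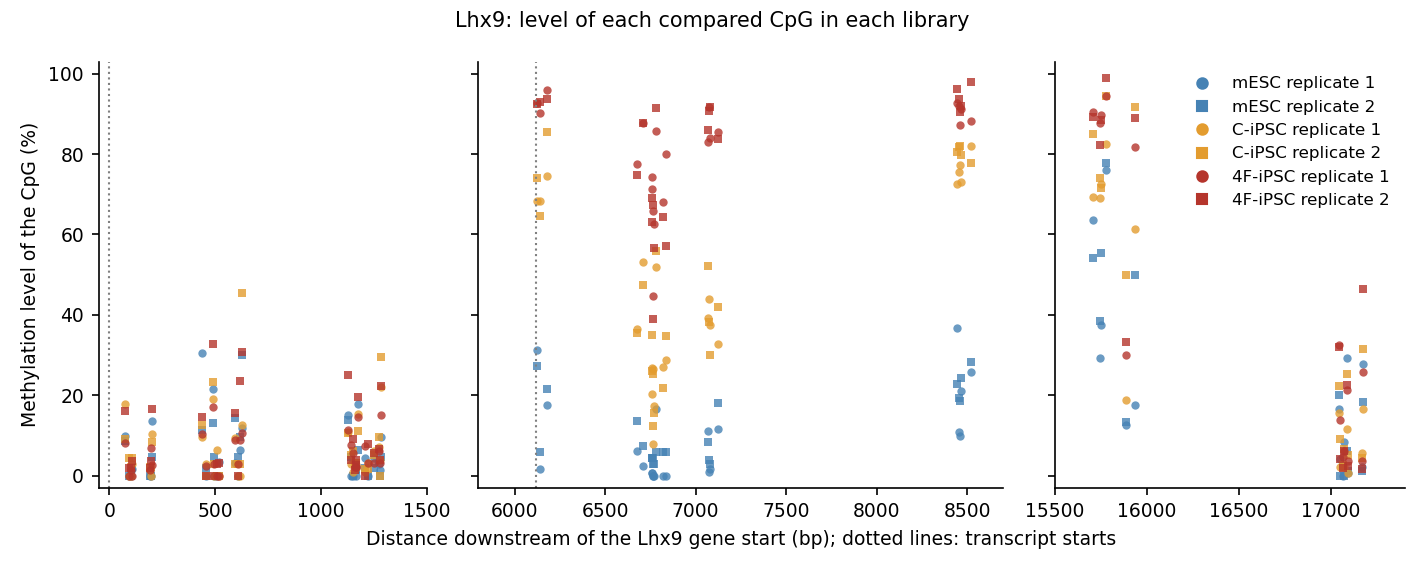
Methylation level (%) of each compared Lhx9 CpG in each of the 6 libraries against its distance (bp) from the gene start. Dotted lines mark the gene start and the inner start at 6120 bp. The other annotated starts among the 5 of the gene are not marked. CpGs within 1284 bp of the gene start lie between 0% and 45.5%, whereas those between 6124 and 8522 bp separate into mESCs at the bottom, C-iPSCs between and 4F-iPSCs at the top.

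The sequences of some of the stretches that rose, and of a nearby stretch that did not, are printed from the GRCm38 reference. They are given on the minus strand, which is the strand of all the genes shown. Capitals mark the CG of the compared CpGs, and lower case CpGs were not covered deeply enough to be compared. The first runs from the first methionine codon of the exon at the inner start into the intron behind it, the next covers the 5 CpGs at the border of the following exon, and the last lies upstream of the inner start.
Lhx9 inner run, chr1:138841682-138841981: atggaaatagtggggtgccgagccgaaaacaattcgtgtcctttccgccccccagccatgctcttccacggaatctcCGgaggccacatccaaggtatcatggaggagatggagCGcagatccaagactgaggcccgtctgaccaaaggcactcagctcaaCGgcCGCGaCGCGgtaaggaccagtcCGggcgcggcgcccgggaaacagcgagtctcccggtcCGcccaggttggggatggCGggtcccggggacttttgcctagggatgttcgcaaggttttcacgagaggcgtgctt
Lhx9 run in the next exon, chr1:138840035-138840154: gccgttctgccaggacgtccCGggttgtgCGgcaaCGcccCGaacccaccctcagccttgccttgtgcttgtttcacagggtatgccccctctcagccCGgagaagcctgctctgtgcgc
Lhx9 upstream intron, chr1:138847273-138847470: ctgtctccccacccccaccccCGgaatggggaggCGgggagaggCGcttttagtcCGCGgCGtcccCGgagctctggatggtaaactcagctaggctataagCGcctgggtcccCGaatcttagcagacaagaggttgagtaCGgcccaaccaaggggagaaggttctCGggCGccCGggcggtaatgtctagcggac
In the inner run all 10 compared CpGs rose by over 33.3 points between mESCs and 4F-iPSCs, from 2.65% and 5.81% through 29.7% and 31.0% to 71.8% and 67.1%. In the run of the next exon all 5 did, from 20.9% and 22.7% through 76.1% and 80.3% to 90.3% and 94.0%. In the upstream intron none of 13 did, and the level was 4.71% and 3.33%, then 6.14% and 6.91%, and then 6.48% and 8.61%. These 13 CpGs lie 131 to 286 bp past another annotated transcript start of Lhx9. The observed to expected CpG ratio was 0.904 in the inner run, 0.632 in the next exon and 0.751 in the upstream intron.

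The stretches of Lhx9 differed in where C-iPSCs stood between the other cell types. In the run of 14 CpGs from 6674 to 7124 bp past the gene start (chr1:138841453-138841904), C-iPSCs were at 32.9% ± 1.12, between 5.11% ± 2.00 in mESCs and 74.5% ± 1.98 in 4F-iPSCs (SD, n = 2 each). In the 3 UTR CpGs at the inner start, from 6124 to 6177 bp past the gene start (chr1:138842400-138842454), C-iPSCs were at 72.6% ± 3.10, between 17.5% ± 0.997 and 93.0% ± 0.0342. In the 5 CpGs of the next exon and its intron (chr1:138840055-138840134), they were at 78.2% ± 2.95, between 21.8% ± 1.30 and 92.2% ± 2.67. Further in, at chr1:138832642-138832833, the 5 CpGs were at 40.8% ± 8.74, 68.5% ± 11.0 and 77.5% ± 1.16, and the C-iPSC libraries, at 60.8% and 76.3%, were the most spread.

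Single CpGs of Lhx9 rose further. The CpG at chr1:138841503, in the intron 7074 bp past the gene start, was at 0.862% and 3.92% in the mESC, 43.9% and 38.2% in the C-iPSC, and 91.6% and 90.8% in the 4F-iPSC libraries, with 102 to 173 reads per library. The CpG at chr1:138841499 was at 1.74% and 2.97%, 37.5% and 30.1%, and 83.9% and 91.6%. The UTR CpG at chr1:138842434 was at 1.56% and 5.80%, 68.2% and 64.7%, and 90.2% and 92.9%. Bisulfite reads come from each DNA strand on its own. Of the 43 Lhx9 CpGs with at least 10 reads on each strand in every cell type, 0 had strands that differed by over 33.3 points in any cell type.

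A CpG was called strongly different where Fisher's exact test (two-sided, on the reads of both replicates together) had an unadjusted p under 0.05 and the levels differed by over 33.3 points. This test covers counting error only, since it takes each read as a separate molecule and holds no spread between the libraries. Of the 1168 CpGs of the 9 other genes, 38 (3.25%) were strongly higher in 4F-iPSCs than in mESCs, against 14.3% of all compared CpGs, and none was lower, against 0.0331%. In C-iPSCs against mESCs, 4 (0.342%) were higher, against 2.88% of all, and none was lower, against 0.0367%. In 4F-iPSCs against C-iPSCs, 1 (0.0856%) was higher, against 1.35% of all, and none was lower, against 0.0281%. In the same windows of all protein-coding genes, the share strongly higher in 4F-iPSCs than in mESCs was 9.43%. The 9 genes thus held a smaller share of strongly higher CpGs than all compared CpGs in each comparison. In Lhx9, whose levels led to the choice, 25, 14 and 13 of 66 CpGs differed by over 33.3 points in the same comparisons, counted by size alone, and nothing is read from these counts against the other genes. With the libraries as replicates, in the quasi-binomial model with adjusted p-values, 37, 3 and 0 CpGs of the 9 genes were called. The comparisons with mESCs share the mESC libraries. The small counts turned on single libraries. In C-iPSCs against mESCs the count was 12 when C-iPSC replicate 1 was left out, 10 when mESC replicate 2 was, and 2 when C-iPSC replicate 2 was. In 4F-iPSCs against C-iPSCs it was 5 when C-iPSC replicate 2 was left out, and 0 when C-iPSC replicate 1 or mESC replicate 2 was, since the CpG then fell under the read limit.

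**Figure D2:**
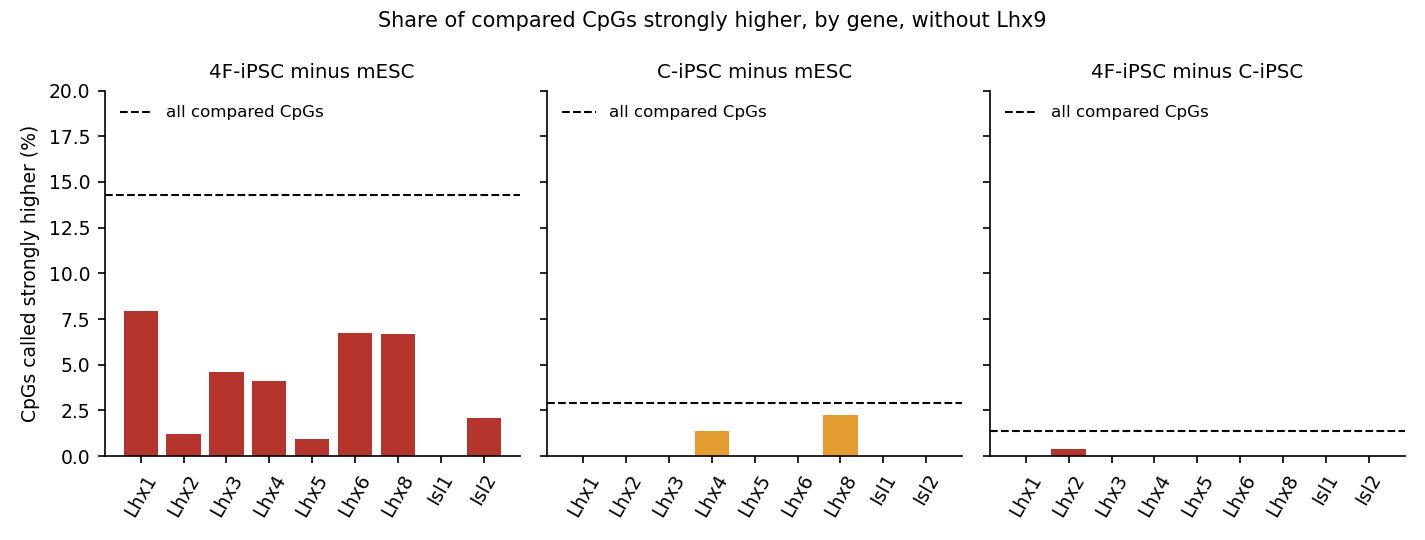
Share (%) of the compared CpGs of each gene that were strongly higher in 4F-iPSCs than in mESCs, in C-iPSCs than in mESCs and in 4F-iPSCs against C-iPSCs, for the 9 genes other than Lhx9. Bars start at 0, and the dashed line, at 14.3%, 2.88% and 1.35%, is the share among all compared CpGs.

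By gene, the 38 CpGs strongly higher in 4F-iPSCs than in mESCs were 9 of 113 in Lhx1, 6 of 146 in Lhx4, 6 of 89 in Lhx6, 6 of 90 in Lhx8, 3 of 251 in Lhx2, 3 of 65 in Lhx3, 3 of 143 in Isl2 and 2 of 209 in Lhx5. Isl1, which acts in motor neurons and in heart progenitors, had none of 62. The 4 CpGs strongly higher in C-iPSCs than in mESCs lay in Lhx4 and Lhx8, 2 in each. Many lay in short runs, defined as at least 3 strongly higher CpGs with at most 300 bp between neighbours. In the 9 genes the comparison of 4F-iPSCs with mESCs held 5 runs, in Lhx1, Lhx3, Lhx4, Lhx6 and Lhx8, while 37.5% of 17233 protein-coding genes with at least 3 compared CpGs had at least 1 run. The other comparisons held 0 runs in the 9 genes, while 5.51% (C-iPSCs against mESCs) and 1.79% (4F-iPSCs against C-iPSCs) of these protein-coding genes had one.

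Of these 5 runs, 3 are printed in the same way as those of Lhx9, to show the bases around their CpGs.
Lhx1 run, chr11:84521795-84521965: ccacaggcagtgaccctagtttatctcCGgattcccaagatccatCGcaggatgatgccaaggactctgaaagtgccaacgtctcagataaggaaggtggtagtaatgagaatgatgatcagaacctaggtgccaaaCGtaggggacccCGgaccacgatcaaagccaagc
Lhx3 run, chr2:26205866-26205940: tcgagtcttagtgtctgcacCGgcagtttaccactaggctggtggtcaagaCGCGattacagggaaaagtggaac
Lhx8 run, chr3:154324675-154324786: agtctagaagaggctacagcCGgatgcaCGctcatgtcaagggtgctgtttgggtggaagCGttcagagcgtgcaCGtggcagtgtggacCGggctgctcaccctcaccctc
The stretch of Lhx1 is the end of its run farther from the inner start, and its 4 compared CpGs were at 26.5% and 31.6% in the mESC, 44.2% and 59.3% in the C-iPSC, and 68.7% and 71.5% in the 4F-iPSC libraries. The observed to expected CpG ratio was 0.530 in the Lhx1 stretch, 0.815 in that of Lhx3 and 0.589 in that of Lhx8.

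Lhx1, which acts in the head organizer and the kidney, had the longest run, 9 strongly higher CpGs among 14 over 479 bp in the exon at its inner start (chr11:84521815-84522293). The 14 CpGs were at 16.2% and 18.8% in the mESC libraries, 34.8% and 40.4% in the C-iPSC libraries, and 53.1% and 54.2% in the 4F-iPSC libraries, or 17.5% ± 1.84, 37.6% ± 3.92 and 53.7% ± 0.795 (SD, n = 2). Its most changed CpG, at chr11:84521827 in a coding exon, was at 17.1% and 32.8%, 47.0% and 65.1%, and 79.0% and 74.4%. The next, at chr11:84522292 in the UTR 39 bp past the inner start, was at 17.0% and 20.9%, 43.8% and 51.3%, and 74.9% and 66.8%. In both, all libraries of a cell type lay above those of the cell type before it.

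Lhx3 and Lhx4, which act together in the pituitary and in motor neurons, had 3 and 6 strongly higher CpGs. The run of Lhx3, 3 CpGs in an intron at chr2:26205886-26205920, was at 40.2% ± 4.99 (mESCs), 60.5% ± 5.38 (C-iPSCs) and 77.5% ± 0.606 (4F-iPSCs) (SD, n = 2). The most changed CpG of Lhx4, at chr1:155724717 in an intron, was at 27.8% and 18.5%, 48.0% and 54.1%, and 78.0% and 71.4%. The Lhx4 CpG at chr1:155717647 was strongly higher than in mESCs in both iPSC types, with 7.50% and 20.3% in the mESC, 46.3% and 52.6% in the C-iPSC, and 54.2% and 46.2% in the 4F-iPSC libraries.

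Lhx6 and Lhx8, which specify neurons of the ventral forebrain, had runs in introns. In Lhx6, 3 of 7 CpGs at chr2:36097624-36097902 were strongly higher, and the 7 were at 21.6% and 27.9% in the mESC, 26.2% and 41.1% in the C-iPSC, and 51.8% and 57.6% in the 4F-iPSC libraries. C-iPSC replicate 1 lay within the range of the mESC libraries. In Lhx8, the 5 CpGs at chr3:154324695-154324766 were all strongly higher, at 34.3% and 57.4%, 69.0% and 78.4%, and 88.2% and 85.4%, or 45.9% ± 16.3, 73.7% ± 6.70 and 86.8% ± 1.94 (SD, n = 2). The Lhx8 CpGs at chr3:154324725 and chr3:154324757 were also strongly higher in C-iPSCs than in mESCs, by 41.0 and 36.7 points, and the mESC libraries there were at 28.1% and 47.5%, and 32.2% and 71.1%.

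The strongly higher CpGs of Lhx2, Lhx5 and Isl2 formed no run. In Lhx2, which acts in the eye and the cortex, the CpG at chr2:38366172 was at 43.3% and 51.1%, 75.5% and 80.3%, and 88.9% and 89.8%. In Isl2, a motor neuron gene, the intron CpG at chr9:55542998 was at 8.40% and 5.88%, 25.4% and 36.4%, and 51.7% and 42.7%. In Lhx5, which acts in the forebrain, the CpG at chr5:120433486 was at 30.0% and 66.7%, 69.6% and 70.0%, and 84.0% and 76.2% on 15 to 25 reads per library. The mESC libraries of that CpG differed by more than the cell types did. The lone CpG of the 9 genes strongly higher in 4F-iPSCs against C-iPSCs, at chr2:38350164 in Lhx2, was at 16.7% and 27.8% in the mESC, 8.33% and 28.6% in the C-iPSC, and 46.2% and 66.7% in the 4F-iPSC libraries and had 6 to 26 reads per library.

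A transcript start within 1 kb of the last one kept in its gene got no window. The windows of 1 kb to each side of the other transcript starts were added after the position of the Lhx9 rise had been seen. They were tested over the libraries with a quasi-binomial model of the summed reads, with p-values adjusted over all 14273 start windows. Of 12 covered windows of the 9 genes, 2 were higher in 4F-iPSCs than in mESCs, 2 in C-iPSCs than in mESCs and 2 in 4F-iPSCs against C-iPSCs, and these were the inner starts of Lhx1 and Lhx3 each time. Among all start windows 9.89%, 4.85% and 4.96% were called higher. The 12 windows had a median difference of 0.691, 0.476 and 0.578 points, against 0.665, 0.159 and 0.563 points over all windows.

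The inner start of Lhx1, at chr11:84522331 and 3204 bp inside the gene, had 24 CpGs with 13.7% and 15.5% in the mESC libraries, 27.4% and 32.4% in the C-iPSC libraries, and 42.5% and 44.9% in the 4F-iPSC libraries. The means were 14.6% ± 1.26, 29.9% ± 3.54 and 43.7% ± 1.72 (SD, n = 2), and no cell types overlapped. The window was 29.1 points higher in 4F-iPSCs than in mESCs (adjusted p = 2.03e-22, quasi-binomial), 15.2 points higher in C-iPSCs than in mESCs (adjusted p = 6.64e-07) and 13.8 points higher in 4F-iPSCs against C-iPSCs (adjusted p = 6.72e-05). The first call held without any single library, with 27.9 to 30.3 points. The second was lost without mESC replicate 1 (14.3 points, adjusted p = 0.231), and the third without C-iPSC replicate 1 (11.3 points, adjusted p = 0.115). At the gene start of Lhx1, in contrast, 55 CpGs had 1.32% to 3.44% over the libraries.

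The inner start of Lhx3, at chr2:26206575 and 1714 bp inside the gene, had 17 CpGs with 16.6% and 16.7% in the mESC libraries, 25.1% and 32.3% in the C-iPSC libraries, and 36.3% and 39.5% in the 4F-iPSC libraries. The means were 16.7% ± 0.132, 28.7% ± 5.08 and 37.9% ± 2.24 (SD, n = 2). The window was 21.2 points higher in 4F-iPSCs than in mESCs (adjusted p = 2.16e-11, quasi-binomial), 12.1 points higher in C-iPSCs than in mESCs (adjusted p = 8.59e-04) and 9.17 points higher in 4F-iPSCs against C-iPSCs (adjusted p = 0.0344). The first call held without any single library. The second was lost without mESC replicate 1 (adjusted p = 0.510), mESC replicate 2 (0.0989) or C-iPSC replicate 2 (0.287), where it was 8.48 to 12.2 points. The third was lost without mESC replicate 1 (9.17 points, adjusted p = 0.202), mESC replicate 2 (9.17 points, 0.216), C-iPSC replicate 1 (5.58 points, 1.00) or 4F-iPSC replicate 2 (7.59 points, 0.113).

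The other 10 windows were low in all libraries. Lhx4, whose covered start lies 9657 bp inside the gene, had 67 CpGs at 2.73% and 2.04% in the mESC, 1.83% and 2.84% in the C-iPSC, and 2.08% and 3.32% in the 4F-iPSC libraries. Isl2, whose covered start lies 2476 bp inside, had 32 CpGs at 2.55% and 1.35%, 2.46% and 3.76%, and 2.79% and 4.55%. At the inner start of Lhx2, 22 CpGs were at 3.86% and 5.30%, 3.07% and 3.87%, and 4.40% and 5.38%, and C-iPSCs had the lowest mean. At that of Lhx6, 28 CpGs were at 3.96% and 3.96%, 4.12% and 4.93%, and 4.26% and 4.81%. The covered windows of Lhx4 and Isl2 and the inner start windows of Lhx2 and Lhx6 thus stayed under 6% in all libraries. In Lhx4 and Isl2 the covered start is the only start of the basic annotation, and not an inner start beside another.

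**Figure D3:**
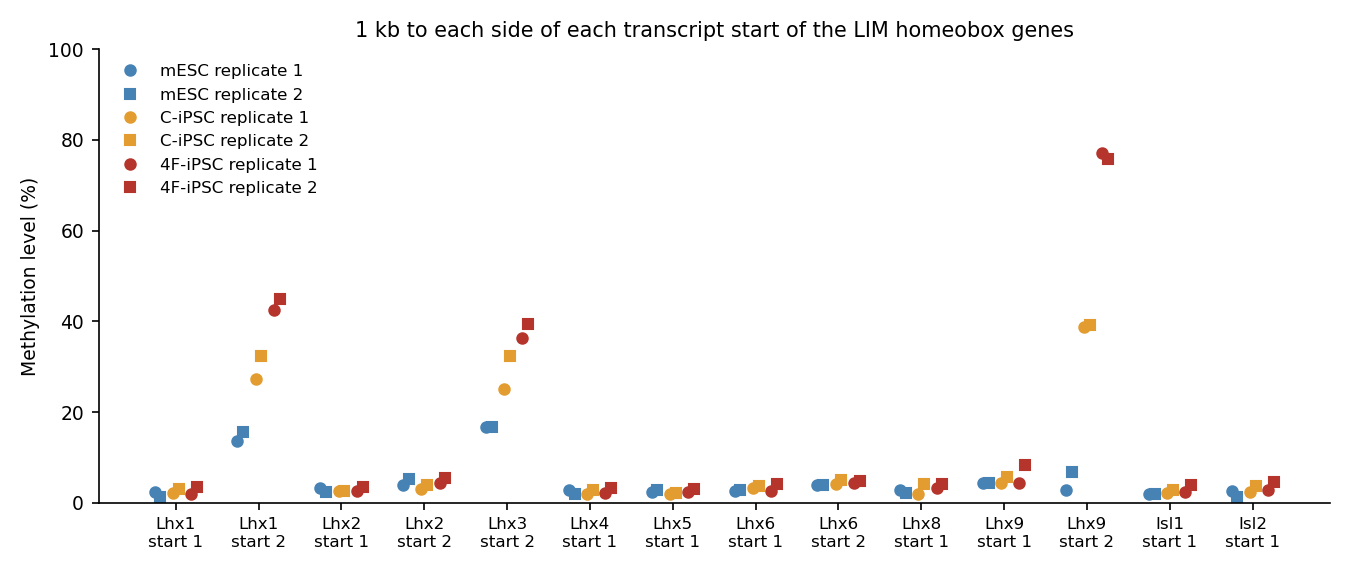
Methylation level (%) in the window of 1 kb to each side of each covered transcript start of the LIM homeobox genes, with 1 point per library; starts are numbered from the 5′ end of each gene. The inner starts (start 2) of Lhx9, Lhx1 and Lhx3 rise from mESCs through C-iPSCs to 4F-iPSCs, and the other windows lie under 10% in all libraries.

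The promoters at the gene starts, 1 kb to each side, did not pass the test. Of the 9 genes 6 had at least 5 compared CpGs there, and Lhx3, Lhx4 and Isl2 had too few. In the quasi-binomial test, adjusted over 12646 promoters, none of the 6 was called in any comparison, none had an unadjusted p under 0.05, and the smallest adjusted p was 0.889, 1.00 and 0.950. Among all promoters 8.56%, 4.04% and 4.03% were higher in 4F-iPSCs than in mESCs, in C-iPSCs than in mESCs and in 4F-iPSCs against C-iPSCs. With limma on the mean CpG levels none was called either. Lhx5 was at 2.33% and 2.72% in the mESC, 1.98% and 2.23% in the C-iPSC, and 2.31% and 3.06% in the 4F-iPSC libraries. Lhx8 was at 2.76% and 2.22%, 2.04% and 4.12%, and 3.34% and 4.20%. Isl1 was at 2.00% and 2.00%, 2.13% and 2.84%, and 2.42% and 3.90%. Over the 6 promoters the median difference between 4F-iPSCs and mESCs was 0.691 points, against 0.652 points over all promoters.

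Upstream flanks, from 5 kb to 1 kb before the gene start, were covered in 5 of the 9 genes. The Lhx6 flank (chr2:36106409-36110408) was called in both comparisons with mESCs and none in 4F-iPSCs against C-iPSCs, while among all 2848 flanks 56.6% were higher in 4F-iPSCs than in mESCs, 35.2% in C-iPSCs than in mESCs and 28.6% in 4F-iPSCs against C-iPSCs. Its 5 CpGs were at 11.9% and 18.2% in the mESC, 23.3% and 43.1% in the C-iPSC, and 34.5% and 39.4% in the 4F-iPSC libraries. The C-iPSC libraries enclosed the 4F-iPSC libraries. The flank was 21.9 points (SE 3.99) higher in 4F-iPSCs than in mESCs (adjusted p = 9.56e-04, quasi-binomial), a call lost without mESC replicate 1 (18.8 points, adjusted p = 0.0692) or 4F-iPSC replicate 2 (19.5 points, 0.0851). It was 18.2 points (SE 10.4) higher in C-iPSCs than in mESCs (adjusted p = 0.00374), a call lost without mESC replicate 1 (15.0 points, 0.269), either 4F-iPSC replicate (18.2 points, 0.0679 and 0.0659) or C-iPSC replicate 2 (8.30 points, 0.270). The 4F-iPSCs were 3.73 points above the C-iPSCs (adjusted p = 0.823).

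The other 4 flanks were not called. The Lhx2 flank was at 16.7% and 13.1% in the mESC, 13.1% and 11.1% in the C-iPSC, and 21.5% and 23.5% in the 4F-iPSC libraries, and its difference of 10.4 points between 4F-iPSCs and C-iPSCs had an adjusted p of 0.0713. It was the 1 flank with an unadjusted p under 0.05 in that comparison. The Isl1 flank was at 10.7% and 12.5%, 11.4% and 21.9%, and 14.1% and 16.8%. The Lhx5 and Lhx8 flanks lay between 2.80% and 12.5% in all libraries.

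In the bodies, from 1 kb after the gene start to the gene end, 6 of the 9 genes were higher in 4F-iPSCs than in mESCs, against 82.2% of 11415 bodies. Lhx1 alone was higher in C-iPSCs than in mESCs, against 56.8%, and none was called in 4F-iPSCs against C-iPSCs, against 33.0%. In that last comparison 2 had an unadjusted p under 0.05, limma called none, 3 were called with the replicate number as a block, and 6 without C-iPSC replicate 2. The differences were small beside those of other genes, since the median difference between the summed reads of the cell types was 5.97, 3.10 and 3.06 points in the 9 genes and 24.4, 14.3 and 9.22 points over all bodies. The differences of single regions are between the means of their libraries. From mESCs over C-iPSCs to 4F-iPSCs, the median level of all bodies was 37.9%, 54.7% and 66.6%, and that of the 9 genes was 6.96%, 10.9% and 12.5%.

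The Lhx1 body, which contains the inner start, was at 9.76% and 10.1% in the mESC, 17.2% and 23.7% in the C-iPSC, and 28.2% and 29.9% in the 4F-iPSC libraries. It rose by 19.1 points (SE 0.856) from mESCs to 4F-iPSCs (adjusted p = 2.01e-06, quasi-binomial), a call that held without any single library at 18.4 to 20.0 points. The difference of C-iPSCs from mESCs was 10.5 points (SE 3.24, adjusted p = 0.00990), and that of 4F-iPSCs from C-iPSCs was 8.59 points (SE 3.35, adjusted p = 0.0726). The Lhx6 body was at 11.3% and 12.7%, 13.2% and 18.7%, and 22.8% and 25.8%, and rose by 12.3 points (SE 1.62, adjusted p = 8.97e-04) from mESCs to 4F-iPSCs. The Lhx3 body was at 8.43% and 8.69%, 10.8% and 12.5%, and 16.0% and 17.9%, and rose by 8.38 points (SE 0.983, adjusted p = 0.0125). In these 3 bodies no library reached into the range of another cell type.

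The bodies of Lhx2, Isl2 and Lhx4 rose less. They contain the low start windows described above, of 22, 32 and 67 CpGs. Lhx2 was at 7.54% and 8.53%, 8.82% and 13.3%, and 13.3% and 14.6%, and rose by 5.89 points (SE 0.832, adjusted p = 0.0319, quasi-binomial) from mESCs to 4F-iPSCs. Isl2 was at 3.50% and 3.36%, 4.99% and 7.84%, and 7.78% and 9.88%, and rose by 5.40 points (SE 1.05, adjusted p = 0.0123). Lhx4 was at 5.79% and 6.17%, 7.02% and 10.4%, and 10.1% and 12.1%, and rose by 5.12 points (SE 1.02, adjusted p = 0.0449). In all 3 the 4F-iPSC libraries lay above the mESC libraries and the higher C-iPSC library reached past the lower 4F-iPSC library or met it.

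The bodies of Isl1, Lhx5 and Lhx8 did not pass the test. Isl1 was at 5.28% and 4.90% in the mESC, 5.66% and 12.9% in the C-iPSC, and 14.0% and 10.0% in the 4F-iPSC libraries, a difference of 6.90 points between 4F-iPSCs and mESCs (adjusted p = 0.0727, quasi-binomial). Lhx5 was at 4.30% and 5.47%, 5.94% and 8.64%, and 8.08% and 10.5% (4.39 points, adjusted p = 0.0635). Lhx8 was at 6.25% and 7.97%, 9.49% and 13.9%, and 8.56% and 11.3% (2.80 points, adjusted p = 0.292), with C-iPSCs above 4F-iPSCs on average. The count of 6 called bodies turned on single libraries: it was 1 without mESC replicate 1, 2 without mESC replicate 2 or 4F-iPSC replicate 2, 4 without 4F-iPSC replicate 1 and 8 without either C-iPSC replicate. Where a body lost its call, the difference was 11.6 points in Lhx6, 7.41 to 8.47 points in Lhx3 and 4.12 to 6.56 points in Lhx2, Lhx4 and Isl2. The count of 1 in C-iPSCs against mESCs was 0 without either mESC replicate and 7 without C-iPSC replicate 1, and that of 0 in 4F-iPSCs against C-iPSCs was 6 without C-iPSC replicate 2.

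By body level in 4F-iPSCs the order was Lhx9, Lhx1, Lhx6, Lhx3, Lhx2, Isl1, Lhx4, Lhx8, Lhx5 and Isl2. From Lhx2 downward the libraries of each gene overlapped those of the next, so that only Lhx9, Lhx1, Lhx6 and Lhx3 stood apart from their neighbours. Coverage differed between genes, as RRBS left 13.4% (Lhx9) to 36.0% (Lhx5) of the CpGs of the reference to be compared.

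**Figure D4:**
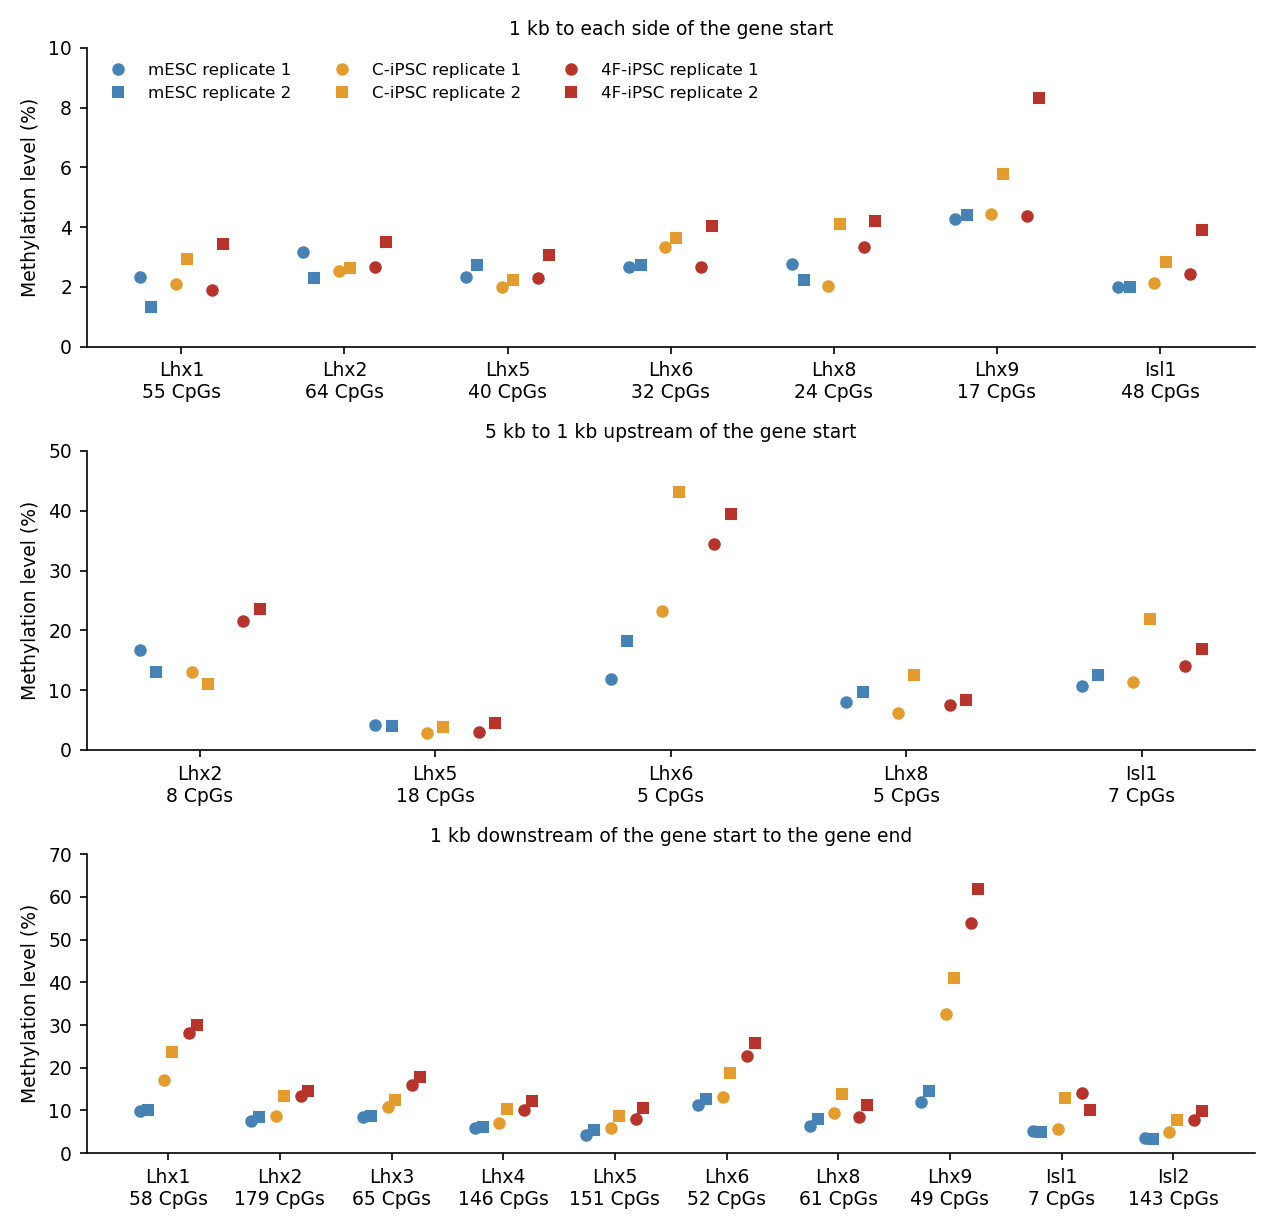
Methylation level (%) of the promoter, the upstream flank and the body of each gene with at least 5 compared CpGs, with 1 point per library and a separate axis range per panel. Promoters stay under 10%, the C-iPSC libraries at the Lhx6 flank spread from 23.3% to 43.1%, and the body of Lhx9 stands above those of the other genes in C-iPSCs and 4F-iPSCs.

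The levels of the 9 genes went with the density of CpGs around each site, counted in the reference within 100 bp to each side with the site itself. The 41 sparsest CpGs, with a count of 1 to 5, had a mean of 31.4% (mESCs), 42.4% (C-iPSCs) and 52.8% (4F-iPSCs), and 24.4% of them were strongly higher in 4F-iPSCs than in mESCs, against 31.1% of all compared CpGs of that density. With 6 to 10 CpGs, 193 CpGs were at 11.8%, 17.4% and 22.3%, and 11.9% were strongly higher, against 27.8% of all. With 11 to 20, 620 CpGs were at 4.52%, 5.50% and 7.24%, and 0.806% were strongly higher, against 6.55% of all. With over 20, 314 CpGs were at 2.39%, 2.46% and 3.27%, and none was, against 0.105% of all. In Lhx9, whose values led to the choice, the 37 CpGs with a count of 11 to 20 include those of the inner run, and their mean was 6.18%, 24.4% and 42.3%. These shares describe CpGs that share fragments and libraries, and no test was made across them.

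**Figure D5:**
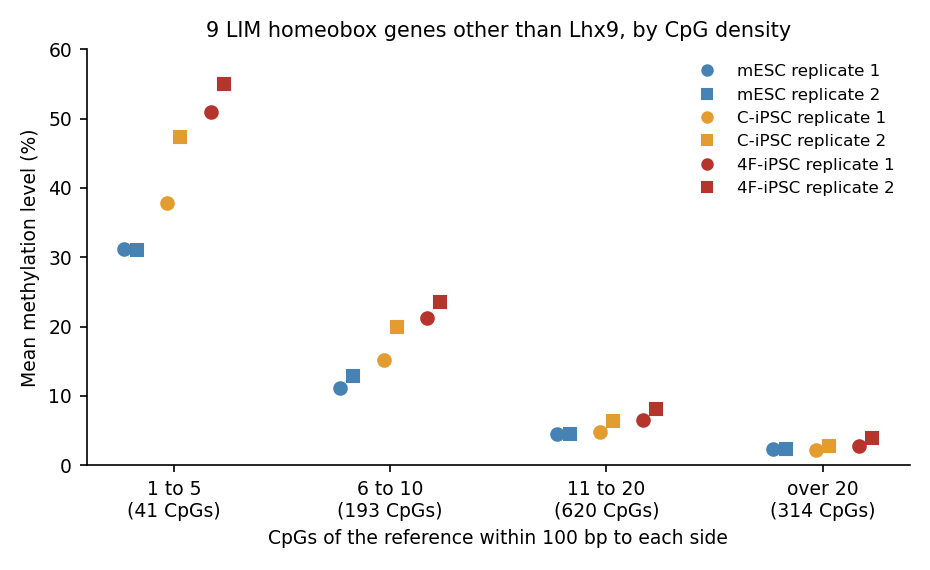
Mean methylation level (%) of the CpGs of the 9 genes other than Lhx9 by the number of reference CpGs within 100 bp, with 1 point per library. The sparsest CpGs run from 31.1% in mESC replicate 2 to 55.0% in 4F-iPSC replicate 2, and the densest stay under 4% in all libraries.

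By annotation, 12 of 229 coding CpGs (5.24%) and 23 of 527 intron CpGs (4.36%) of the 9 genes were strongly higher in 4F-iPSCs than in mESCs, against 2 of 201 in UTRs and 1 of 132 upstream. Over all protein-coding genes, classed in the same way, the shares were 12.8% of coding, 14.3% of intron, 2.21% of UTR and 4.44% of upstream CpGs. Over 5000 bp from any start, 196 CpGs were at 12.3% (mESCs), 16.8% (C-iPSCs) and 21.1% (4F-iPSCs), and 17 of them (8.67%) were strongly higher, against 25.5% in all protein-coding genes. Within 500 bp of a start, 317 CpGs were at 3.70%, 4.79% and 6.44%, and 7 (2.21%) were strongly higher, against 0.729%. All 7 lay in the Lhx1 run at its inner start.

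Starts were also classed by sequence as high (HCP), intermediate (ICP) or low (LCP) in CpG content. Of 15 start windows of the 10 genes, 13 were HCP, among them the inner starts of Lhx9, Lhx1 and Lhx3, with a highest observed to expected CpG ratio of 0.964, 0.893 and 0.767. The Lhx9 gene start was ICP (0.691) and the Lhx3 gene start, which had no compared CpG, was LCP (0.403). Among all HCP windows of the genome, 3.46% were higher in 4F-iPSCs than in mESCs, 0.969% in C-iPSCs than in mESCs and 1.43% in 4F-iPSCs against C-iPSCs.

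The start windows most like the Lhx9 inner start, whose levels led to the choice of the family, are given as a description. Over the 6 libraries, 12456 windows with at least 10 CpGs were compared with it by the root mean square difference of the level, and 0 of these came within 5 points. The nearest were Klb at 9.79 points, 1700018B08Rik at 10.8, Tuba3a at 11.0, Fbp2 at 11.7 and Rpl39l at 11.9. Klb was at 14.1% and 17.1% in the mESC, 30.8% and 48.2% in the C-iPSC, and 68.4% and 65.0% in the 4F-iPSC libraries. The Lhx9 gene start, in contrast, had 10555 of 11175 promoters within 5 points, and the nearest 5, Zfp819, Utp14a, Fndc3c1, Fhod3 and Myo5c, came within 0.409 to 0.506 points.

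A list of 12 partner genes held the remaining LIM homeodomain genes Lmx1a and Lmx1b, the cofactors Ldb1 and Ldb2, the LIM-only genes Lmo1, Lmo2, Lmo3 and Lmo4, Ssbp2, Ssbp3 and Ssbp4, which bind Ldb proteins, and Rlim, a ubiquitin ligase that acts on them. In the quasi-binomial test none of their 9 covered promoters and none of their 13 start windows was called in any comparison, and none had an unadjusted p under 0.05. Of 12 bodies, 8 were higher in 4F-iPSCs than in mESCs, 4 in C-iPSCs than in mESCs and 2, those of Ldb2 and Rlim, in 4F-iPSCs against C-iPSCs, where the shares over all bodies were 82.2%, 56.8% and 33.0%. The bodies of Lmo1, Lmo2, Ssbp2 and Ssbp4 were not called. Ldb2 was at 46.2% and 50.6%, 64.2% and 75.5%, and 79.4% and 83.0%, and rose by 11.3 points from C-iPSCs to 4F-iPSCs (adjusted p = 0.0394, quasi-binomial). Of 3 covered flanks, that of Lmx1b, which acts in the dorsal limb, was higher in all comparisons, at 12.5% and 11.6%, 17.6% and 23.0%, and 31.8% and 34.7% (adjusted p = 1.12e-13, 0.00526 and 2.85e-05), where 56.6%, 35.2% and 28.6% of all flanks were called higher.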

How the data were processed

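The authors aligned the RRBS read pairs to mm10 (BSMAP 2.90 in the submitters' processing notes), discarded pairs without a unique place and extracted CpGs by MOABS. What the authors deposited per library is a count of total and of methylated reads at each CpG, raw and with no lower limit, for the strands combined and singly. A methylated fraction is deposited beside them, and here it served as a check on the counts, from which it differed by over 0.0006 (it is given to 3 decimals) at 0 CpGs. Alignment and bisulfite conversion were not examined here.

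Genes and transcripts came from GENCODE M21 and sequences from RefSeq GRCm38.p6. Methylated and all reads were summed over the compared CpGs of each promoter, flank, body and start window with at least 5 of them. A quasi-binomial model of the 6 libraries (3 residual degrees of freedom) was fitted, its dispersion was squeezed toward regions of like depth with limma 3.58.1 and kept at 1 or more, and p-values were adjusted by Benjamini-Hochberg over all genes with such a region. The prior degrees of freedom came out infinite, so each region took the spread of regions of like depth in place of its own. An adjusted p under 0.05 was a call. The exact permutation test of 2 libraries against 2 cannot go below 0.333 (two-sided) and was not used. The test was checked on simulated counts of bodies, where it missed most of the smaller changes put in. A region that was not called may therefore still differ. Wilson intervals were at 95%.

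Alternatives were the read limit, the size of a strong difference, the test, the promoter definition, the replicate block and leaving out each library. Every gene of the family is described. At most 3 CpGs per gene were named, those with the greatest difference between 4F-iPSCs and mESCs among strongly different CpGs whose libraries did not overlap, and further CpGs named were chosen after their values were seen. The genes, the partner list and the tests were chosen with earlier results of these data known. The sequence and levels of the run in Lhx4 are not reported here.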

Additional observations from a re-analysis of the deposited data

Results flagged for a closer look

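The rise against mESCs was greater in 4F-iPSCs than in C-iPSCs at the inner starts of Lhx1 and Lhx3. In the quasi-binomial test of the difference itself, the Lhx1 window differed by 13.8 points (adjusted p = 6.72e-05) and the Lhx3 window by 9.17 points (adjusted p = 0.0344). The Lhx1 libraries did not overlap, at 27.4% and 32.4% for C-iPSCs and 42.5% and 44.9% for 4F-iPSCs, and neither did those of Lhx3, at 25.1% and 32.3% and at 36.3% and 39.5%. The Lhx1 difference lost its call without C-iPSC replicate 1 (11.3 points, adjusted p = 0.115). The Lhx3 difference lost its call without C-iPSC replicate 1 (5.58 points, 1.00), 4F-iPSC replicate 2 (7.59 points, 0.113), mESC replicate 1 (9.17 points, 0.202) or mESC replicate 2 (9.17 points, 0.216).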

How the results depend on the processing

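Among the regions and start windows called in the main fit, no direction reversed under any alternative run. Of 115 alternative values of the called region differences 90 kept their side of the threshold, as did 27 of 36 for the start windows. Directions of differences that were not called were not followed. Strongly higher CpGs of the 9 genes, 38, 4 and 1 in 4F-iPSCs against mESCs, C-iPSCs against mESCs and 4F-iPSCs against C-iPSCs, became 65, 18 and 6 with a difference above 0.25 and 5, 0 and 0 above 0.5. In 4F-iPSCs against C-iPSCs, 2 were higher and 1 was lower at 5 reads, and 0 were higher at 20 reads, with adjusted Fisher p-values or in the quasi-binomial model. Leaving out 1 library at a time gave 29 to 43, 2 to 12 and 0 to 5.

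Of all promoters, flanks and bodies of the 9 genes, 7, 2 and 0 were called, and 1 to 9, 0 to 9 and 0 to 7 leaving out 1 library. In C-iPSCs against mESCs 1 was called with only the 4 libraries of the comparison, and in 4F-iPSCs against C-iPSCs 1 was called with promoters of 0.5 kb to each side. Start windows were called 2 times in each comparison, and 2, 0 to 2 and 0 to 2 times leaving out 1 library. The labels share replicate numbers without saying that they pair samples, so the libraries were not taken as pairs. Deviations of same-numbered libraries correlated at 0.0410, -0.226 and 0.118 over 957681 CpGs, which leaves out a shift shared by all CpGs. Over all compared CpGs replicate 2 had the higher mean in every cell type. It was at 22.8% against 20.8% in mESCs, 30.7% against 26.3% in C-iPSCs and 34.4% against 33.1% in 4F-iPSCs. With the replicate block 4 regions were called in 4F-iPSCs against C-iPSCs, and the strongly higher CpGs stayed at 38, 4 and 1. The shallowest library, mESC replicate 2, had a median of 31 reads per CpG, and with 2 libraries per cell type an exact permutation test cannot pass 0.05.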

Other observations

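Over all 1168 CpGs of the 9 genes the mean level was 5.98% and 6.29% in the mESC libraries, 6.99% and 9.10% in the C-iPSC libraries, and 9.51% and 11.2% in the 4F-iPSC libraries. Counting a rise of any size from mESCs to 4F-iPSCs, with no test, 732 of the 1168 CpGs (62.7%) had one, against 68.4% of all compared CpGs. By gene the share was lowest in Isl1, at 28 of 62 CpGs, and highest in Isl2, at 114 of 143, and the median difference was 0 points in Isl1 and 2.57 points in Isl2.

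Reads of the 2 DNA strands were compared where each had at least 10 in every cell type. Of 877 such CpGs of the 10 genes, 1, in Lhx4, differed between strands by over 33.3 points, and it was not strongly different between cell types. Some CpGs lie in other annotated genes too, among them 33 of the 113 of Lhx1 in Lhx1os and 24 of the 209 of Lhx5 in Gm27199.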
